A study of Mus musculus with 10 samples.

Results

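Promoters of long noncoding RNA (lncRNA) genes that lie away from coding genes were examined in spermatozoal DNA. A CpG, a cytosine followed by a guanine, was taken as a member if it lay on an autosome within 500 bp of the start of a GENCODE vM21 gene of type lincRNA, antisense or processed_transcript, more than 2 kb from the start of any protein_coding gene, and had 10 or more reads in each of the 10 animals with both strands summed. This gave 12886 CpGs of 892267 autosomal CpGs covered in all animals. They belonged to 1372 lncRNA genes of 8875 annotated on the autosomes, and 992 of these genes had 3 or more member CpGs, which is what is called a promoter in the following. Of the genes that start more than 2 kb from any coding start, 7342 in all, most had no CpG that passed. No measured level was used to choose them.

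The animals were C57Bl/6 mice. Males of the P-generation had received intraperitoneal injections from an age of 7 weeks, 3 times per week for 7 weeks, of either the vehicle, 7.5% DMSO in phosphate buffered saline (C8 and C14), or decitabine at 0.1 µg per g body weight in the same vehicle (D10, D11 and D13). The F3-generation was never treated and was analysed at 14 weeks, with 2 animals of the vehicle line (F3C9, descended from C8, and F3C30, from C14) and 3 of the decitabine line (F3D1 and F3D31, both descended from D10, and F3D7, from D11). Animals were not pooled. The spermatozoa had been set free by mincing whole epididymides and filtering the suspension, without a sort. The study checked sperm purity by flow cytometry in randomly chosen P-generation samples and reported it as high and nearly the same between groups. It does not say whether the animals sequenced here were among them.

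Decitabine is a cytidine analogue that is built into replicating DNA and traps the DNA methyltransferases, so that methylation is lost as cells divide. Long noncoding RNAs are transcribed from promoters like those of coding genes but are not translated; some act at their own locus, as Airn does when it silences Igf2r on the paternal chromosome, and others carry microRNAs or small nucleolar RNAs in their introns. Many are expressed in the testis more than in other organs. In the male germ line methylation is erased before birth and laid down again before meiosis, and CpG-rich promoters are left free of it.

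The stretches that carry the results below are given first, 5′ to 3′ on the strand of the lncRNA, with the member CpGs in capitals; positions are those of mm10 and the letters those of RefSeq GRCm38.p6. The first 3 are from promoters with 3 called CpGs in the P-generation. Gm4651 was apart in both generations in opposite directions, and H19, Airn and Meg3 are the imprinted lncRNAs with enough member CpGs.
1700065J11Rik (chr6:35330349-35330384, plus strand): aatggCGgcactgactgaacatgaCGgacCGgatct
4930430O22Rik (chr5:115436772-115437067, minus strand): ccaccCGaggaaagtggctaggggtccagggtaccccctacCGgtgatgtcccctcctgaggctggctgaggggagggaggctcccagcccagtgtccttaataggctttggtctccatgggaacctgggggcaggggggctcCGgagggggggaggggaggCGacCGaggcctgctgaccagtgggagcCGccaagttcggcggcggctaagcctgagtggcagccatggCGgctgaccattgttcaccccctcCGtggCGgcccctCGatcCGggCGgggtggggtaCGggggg
Gm38948 (chr7:15971913-15972190, plus strand): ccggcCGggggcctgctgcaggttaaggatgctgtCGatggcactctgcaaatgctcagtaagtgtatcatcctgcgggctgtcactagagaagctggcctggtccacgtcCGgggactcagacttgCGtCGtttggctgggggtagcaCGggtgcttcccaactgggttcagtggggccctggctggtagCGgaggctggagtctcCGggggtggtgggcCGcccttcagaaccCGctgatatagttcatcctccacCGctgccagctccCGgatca
Gm4651 (chr6:121064772-121064892, plus strand): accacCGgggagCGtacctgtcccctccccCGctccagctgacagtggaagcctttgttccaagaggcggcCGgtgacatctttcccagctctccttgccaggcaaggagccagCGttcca
H19 (chr7:142578160-142578248, minus strand): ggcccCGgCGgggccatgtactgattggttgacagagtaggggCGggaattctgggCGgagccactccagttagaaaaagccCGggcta
Airn (chr17:12741585-12741755, plus strand): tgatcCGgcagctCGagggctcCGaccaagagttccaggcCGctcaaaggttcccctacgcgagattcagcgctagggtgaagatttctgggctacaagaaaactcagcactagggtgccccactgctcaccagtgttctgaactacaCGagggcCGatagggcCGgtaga
Meg3 (chr12:109540586-109540650, plus strand): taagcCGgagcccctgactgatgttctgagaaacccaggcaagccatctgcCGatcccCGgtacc

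Reduced representation bisulfite sequencing (RRBS) counts, for each CpG, the reads that kept a cytosine (methylated) and those that read thymine (unmethylated), and the methylation level is the methylated share in percent. The summed coverage of all CpG cytosines ran from 48899912 reads in D13 to 115142357 in F3D1, and the median member CpG had between 40 reads in D13 and 96 in F3D1. At 40 reads the 95% Wilson interval of a level of 50% ran from 35.2% to 64.8%. For the level of a promoter the counts of its CpGs were summed within each animal. A read that covers several CpGs is counted at each of them, so the intervals and limits given for a promoter rest on the reads of its deepest CpG, of which the median promoter had 91 in an animal. PCR duplicates could not be marked, so these intervals cover counting error only.

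One library stood apart. Over the 992 promoters, the mean distance from the median of the 10 animals was 5.98 percentage points in C8, against 2.02 in F3D1 to 4.32 in D11 for the others. Markers of cells other than spermatozoa were read at start windows that are free of methylation in mature sperm and carry it in somatic cells, and this list was chosen after the values were seen. Of 10 maternally imprinted genes 8 had 3 or more CpGs (Snurf, Peg3, Peg10, Nnat, Zrsr1, Nap1l5, Mcts2 and Peg13), and of 7 germline genes 4 had (Ddx4, Dazl, Sycp3 and Tnp1, the transition protein). The mean level over these 12 windows was 27.0% in C8 and 11.4% in C14. The decitabine treated animals had 19.4% (D10), 23.6% (D11) and 15.2% (D13). Among the F3 animals F3C9 had 18.4% and the other 4 between 11.8% and 15.3%. The lowest value of any of the 12 windows was 3.27%, at Peg10 in C14, and C8 was the highest of the 10 animals in 6 windows. D11 was the highest at Peg10, Nnat, Zrsr1, Nap1l5 and Sycp3, and F3C9 at Snurf. At Zrsr1 C8 had 12.5% and D11 28.3%, and at Sycp3 they had 17.7% and 33.1%. Prm1, Prm2 and Tnp2 had no CpG that passed. The H19 control region 2 to 4 kb upstream of its start, which sperm carry methylated, had 2 such CpGs with levels between 84.6% and 100%. How much of any difference described below goes with these marker levels was not tested.

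Most lncRNA promoter CpGs carried little methylation. Of the member CpGs 68.2% had a mean level under 5%, 11.9% lay between 5 and 20%, 12.5% between 20 and 80%, and 7.50% above 80%. The mean level over all members was 14.2% ± 0.399 (SD, n = 10). CpGs within 500 bp of protein_coding starts had a mean level of 1.55% ± 0.121, and CpGs over 2 kb from any gene start one of 60.0% ± 0.474. Member CpGs were thus 12.7 percentage points higher than coding promoter CpGs, in 10 of 10 animals (exact sign-flip permutation test, two-sided, p = 0.00195, the smallest p that 10 animals allow). This p covers the repeat over animals and not the spread between promoters. Read as a mean over start windows with 3 or more CpGs instead of over CpGs, the difference was 25.2 points.

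By promoter, 446 of 992 had a mean level under 5%, 128 lay between 5 and 20%, 249 between 20 and 80%, 116 between 80 and 95%, and 53 above 95%. The level followed the density of CpGs. The ratio of observed to expected CpGs in the window of 500 bp either side of the start had a median of 0.643 in promoters under 5% and of 0.262 in those between 80 and 95%. Split into 5 groups of equal size by this ratio, from the lowest to the highest, the median levels were 79.7%, 29.7%, 9.88%, 1.52% and 0.927%. The 199 promoters of the lowest group held 99 with a level above 80% and 5 under 5%. In the highest group, also of 199, 1 was above 80% and 181 were under 5%.

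**Figure D1:**
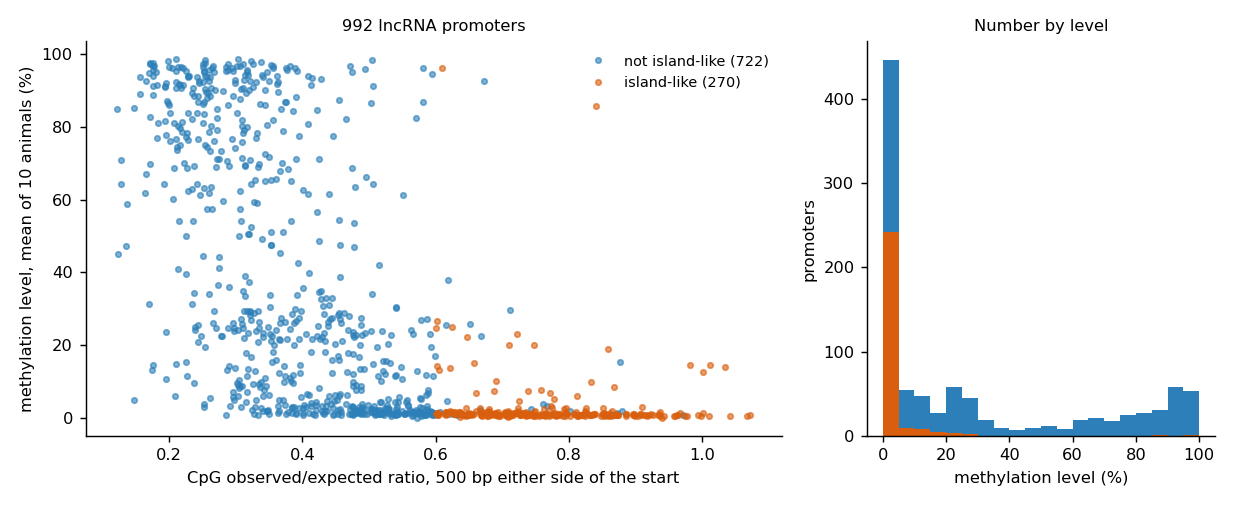
Left, the mean methylation level of the 10 animals in percent for each of the 992 lncRNA promoters against the observed to expected CpG ratio of its window. Right, the number of promoters in steps of 5 percentage points. Promoters with island-like windows (orange) lay near 0 with few exceptions, and the others (blue) ran over the whole range.

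Windows were called island-like at a ratio of at least 0.6 and a GC content of at least 50%. Of 980 lncRNA windows with distinct CpGs 27.2% were island-like, against 75% of 11375 coding windows. Within the island-like windows the mean level over lncRNA windows was between 2.67% and 3.78% in the animals and that over coding windows between 0.937% and 1.28%. The difference was 1.96 ± 0.318 percentage points (SD over animals) and was positive in 10 of 10 animals (exact sign-flip permutation test, two-sided, p = 0.00195). Among the other windows lncRNAs had mean levels between 37.8% and 39.8% and coding genes between 12.1% and 13.5%, a difference of 26.3 ± 0.465 points, again in 10 of 10 animals with the same exact p. The lncRNA promoters were thus more methylated than coding promoters on either side of the density bound, and the medians of the island-like windows lay close together at 0.979% and 0.819%. This split was made after the values were seen, and its p-values too cover animals and not the spread between promoters.

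Of the 270 island-like promoters 242 were under 5% and 7 were at 20% or above. Among those 7, Gm36816, an antisense gene within Gng12, which codes for a G protein subunit, had levels between 93.1% and 100% in the 10 animals. Gm16599, antisense within the homeobox gene Cux1, had levels between 14% and 34.3% over 30 member CpGs, with C8 highest and F3C30 lowest.

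The 3 gene types had different medians, which were not tested. Of 114 processed_transcript promoters 64.9% were under 5% and 11.4% at 80% or above, with a median of 1.61%. The 523 lincRNA promoters had a median of 12.9%, with 40.7% of them under 5% and 14.5% at 80% or above. The 355 antisense promoters had a median of 10.0%, with 44.8% under 5% and 22.5% at 80% or above. Most antisense starts, 83.1%, lay inside a coding gene. Outside the island-like windows, the 261 promoters inside a coding gene had a median of 39.0% and the 461 outside one of 22.7%. The island-like promoters had a median of 0.933% inside and 1.05% outside coding genes. Promoters above 95% lay inside coding genes in 69.8% of cases and those between 20 and 80% in 28.9%.

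Along the promoter the level was lowest between 200 and 100 bp upstream of the start. In steps of 100 bp the mean level was 16.4% between 500 and 400 bp upstream and 11.5% between 200 and 100 bp upstream, over 1456 CpGs. In the last 100 bp before the start the mean level was 13.1%. It was 14% in the first 100 bp of the gene and 16.4% between 300 and 400 bp into it. The spread between animals was at most 0.717 points (SD) in any step. The medians of these steps lay between 0.700% and 2.22%.

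Short sequences known to bind transcription factors were counted in the same windows of 500 bp either side of the start, on both strands. GGGCGG, the core of the GC box, was in 83.1% of lncRNA promoters under 5%, 30.4% of those between 20 and 80% and 19.6% of those at 80% or above, against 81.6% of all 15074 gene-start windows tested and 30.4% of all lncRNA starts on the autosomes. TGACGTCA, the cyclic AMP response element, was in 4.56%, 2.43% and 0.595% of the 3 classes and in 3.99% of all windows tested. CACGTG, the E-box of Myc and Usf, was in 21.2%, 18.2% and 19%, against 20.5% of all windows tested. All 3 sequences hold a CpG themselves.

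The imprinted lncRNAs were low but not free of methylation. Of the 9 genes on this list 3 had 3 or more member CpGs. H19, an RNA made from the maternal chromosome, had 5 of them from -99 to -22 bp of its start at chr7:142578143. Its level was 25.5% in C8 and 9.96% in C14, and 11.6% in D10, 13.6% in D11 and 14% in D13. In the F3-generation H19 had 18.6% in F3C9 and 9.29% in F3C30, and 5.28% in F3D1, 6.57% in F3D7 and 6.27% in F3D31. C8 and its descendant F3C9 had the 2 highest values.

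Airn, whose transcription across Igf2r silences it, had 7 member CpGs from 279 to 438 bp after its start. Among the P-generation animals it was 0% in C8, where the 20 reads of its deepest CpG allow a level of up to 15%, 15.4% in C14, 23.9% in D10, 2.07% in D11 and 22.7% in D13. The F3 animals lay between 8.30% and 15.0%. C8, which was high at H19 and at the marker windows, was the lowest here, though this limit does not set it apart from D11 or the F3 animals. Meg3, a maternally made RNA of the Dlk1 cluster on chromosome 12, had 3 member CpGs from -410 to -357 bp of its start. Its level ran from 14.7% in F3D31 to 37.1% in D11, with overlap between the groups in both generations.

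Genes that host microRNAs or small nucleolar RNAs were almost free of methylation. Of 12 such promoters 11 were under 5%, with a median of 0.926% over all 12, and Meg3 was the exception. Mir155hg, the host of a microRNA of the immune response, had 69 member CpGs and levels between 0.368% and 0.995%. Mir17hg, which carries the miR-17-92 cluster, ran from 0% to 2.41%, where the reads of the 5 animals at 0% allow between 5.77% and 10.7%. Snhg5 and Snhg8, hosts of small nucleolar RNAs, had mean levels of 0.389% and 0.850%. In the P-generation 2 promoters of this list were higher and 2 lower in decitabine treated than in vehicle-control animals without overlap, with differences from -2.21 points at Snhg17 to 0.671 points at Snhg8, where 5.67% of all gene-start windows were higher and 14.7% lower in this way. None of the 12 had a called CpG.

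Widely expressed lncRNAs were low as well, with 8 of 9 promoters under 5% and a median of 0.937%. Malat1, an abundant nuclear RNA, had levels between 0% and 2.67% in its 3 member CpGs, and the 0% of 3 animals allows a level of up to 4.29% in C8 and of up to 10% in D13, the shallowest. Neat1, the scaffold of nuclear paraspeckles, had levels between 0.645% and 3.56%, and Dancr, with 54 member CpGs, between 0.477% and 1.23%. Lncenc1, an RNA of embryonic stem cells, was the highest of this list with a mean of 13.7% and ran from 4.97% in F3C30 to 22.4% in C8.

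Trp53cor1, also known as lincRNA-p21 and induced by p53, was 8.96% in C8 and 5.59% in C14, and 4.42% in D10, 1.72% in D11 and 1.13% in D13. Among the F3 animals Trp53cor1 had 6.5% in F3C9, 6.87% in F3C30, 5.55% in F3D1, 3.91% in F3D7 and 3.50% in F3D31. Its groups did not overlap in either generation, with decitabine minus vehicle differences of -4.85 and -2.37 points. The limma test did not call it (adjusted p = 0.588 in the P-generation and 1.00 in the F3-generation).

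Beside developmental regulators, 3 of 4 promoters were under 5%. Six3os1 had a mean of 1.01%, Nkx2-2os one of 0.776% and Otx2os1 one of 2.34%, and each starts inside the homeobox gene it is named for. At Otx2os1 C8 had 8.07%, and the other 9 animals had between 0.675% and 2.79%. Dlx1as, antisense to Dlx1, had a mean of 11.7% and its highest value, 19.7%, in D11. None of the 4 had groups apart in either generation. The promoters of the imprinted, host, widely expressed and developmental lists held 0 called CpGs in both generations. Hoxb5os, a developmental gene with a single member CpG and so outside these counts, was called in the P-generation at that CpG, with a difference of -30.4 points.

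RIKEN clones with the name prefixes used for adult testis libraries made up 81 promoters, with a median level of 9.72% against 9.71% over all 992. Of these 37 were under 5% and 10 at 80% or above. 1700003G18Rik, with 20 member CpGs, had a mean of 0.469%, and 4930422M22Rik, with 3, one of 98.0%. In the P-generation 7 were higher and 13 lower in decitabine treated animals without overlap, and in the F3-generation 9 and 5. Over all gene-start windows 5.67% were higher and 14.7% lower in the P-generation, and 10.9% and 7.4% in the F3-generation. The set held 15 called CpGs in the P-generation and 1 in the F3-generation, and of all CpGs tested 0.705% and 0.237% were called. The called share of the CpGs of this set was not computed. Of the 15, 1700065J11Rik, 4930430O22Rik and 4930505M18Rik held 3 each. An unadjusted limma p under 0.05 was reached by 10 of them in the P-generation and 1 in the F3-generation, against 8.12% and 3.2% of all windows, and 0 had an adjusted p under 0.05.

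Among promoters with 10 or more member CpGs, the most methylated was Nckap5los, an antisense gene within Nckap5l on chromosome 15, with levels between 87.1% and 93.8%. It was followed by 1700120K04Rik within Rnf40, which codes for a ubiquitin ligase of histone H2B, at 63.0% to 98.6%, and 9230111E07Rik at 63.5% to 76.6%. Nearest to 50% were Gm39318 within the Toll-like receptor adaptor gene Tirap, at 35.9% to 71.6%, and Gm17546 within Ano6, at 37.3% to 73.2%. Gm43579 within Ddx54 ran from 20.4% in D13 to 41.4% in D10, and Gm29480 within Gpc1 from 24.7% in F3C30 to 39.2% in D11.

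A single place on chromosome 17 held much of the depth. Gm26917, Gm42418 and AY036118 start between chr17:39843013 and chr17:39848035, where the mm10 assembly is known to hold a copy of the 45S ribosomal RNA unit, and they were singled out after their values were seen. Their 110 member CpGs took between 41.9% and 46.9% of all reads on member CpGs. Reads from other copies of the unit cannot be told apart from those of this one. The level over these CpGs was 11.9% in C8 and 18.6% in C14, and 16.7% in D10, 17.9% in D11 and 13.3% in D13. In the F3-generation these CpGs had 12.3% in F3C9 and 12.5% in F3C30 against 9.97% in F3D1, 10.9% in F3D7 and 7.48% in F3D31.

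The decitabine line thus lay below both vehicle-line animals on chromosome 17, with a difference of -2.99 points, and the exact permutation test over the 10 splits of 5 animals gave p = 0.2. In the P-generation the difference was 0.706 points, with p = 0.8 by the same exact test. With or without these CpGs the mean level over members ran from 13.7% to 14.9% in the 10 animals, whereas a level taken as methylated reads over all reads is weighted towards them.

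Spread between animals was concentrated in promoters of intermediate level. The range over the 10 animals had a median of 1.89 points in promoters under 5%, 28.5 points in those between 20 and 80% and 7.58 points in those above 95%. Over the member CpGs between 20 and 80%, the mean level was 46.8% in C8 and 41.8% in C14, and 45.2% in D10, 46.0% in D11 and 41.7% in D13. In the F3-generation this mean was 44.3% in F3C9 and 40.6% in F3C30, and 45.2% in F3D1, 41.8% in F3D7 and 42.0% in F3D31. Each of the 4 groups therefore held animals on both sides of 43%. Above 80% the mean was 90.1% in D11, 90.9% in D10, 91.2% in C8 and 91.7% in F3C9, and between 92.0% and 93.4% in the others. C8, D11, D10 and F3C9 were also the 4 highest animals at the marker windows.

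**Figure D2:**
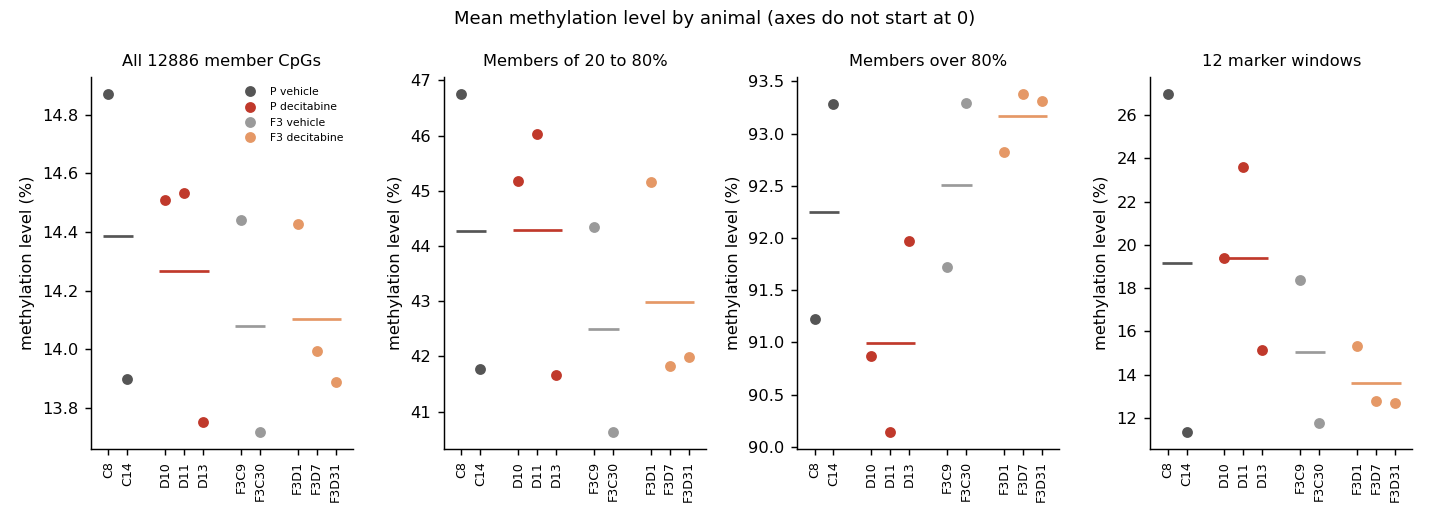
Mean methylation level in percent by animal, from left to right over all member CpGs, over those between 20 and 80%, over those above 80%, and over the 12 marker windows of imprinted and germline genes. Points are animals, lines are group means, and the axes do not start at 0. C8, D10, D11 and F3C9 are the 4 highest animals over all members and at the marker windows and the 4 lowest above 80%.

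Taken as one set, lncRNA promoters showed no detectable difference by treatment in the P-generation. The mean level over member CpGs was 14.9% in C8 and 13.9% in C14, and 14.5% in D10, 14.5% in D11 and 13.8% in D13. D10 and D11 lay between the vehicle-control animals and D13 below both. The difference of the group means was -0.120 points (14.3% ± 0.444, SD, n = 3, against 14.4% ± 0.687, SD, n = 2), and the exact permutation test gave p = 0.9, where 5 animals allow no p below 0.1. Leaving out C8 turned the difference to 0.366 points and leaving out D13 to 0.136, and leaving out C14 made it -0.606.

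In the P-generation 82 member CpGs were called, 41 higher and 41 lower in decitabine treated animals, in windows of 66 lncRNA genes. A call needed pooled reads that differed by 25 percentage points or more and a q-value under 0.01 in a likelihood-ratio test, which takes all reads of a group as one sample. The called share of the members was 0.636%, and of all 934217 CpGs tested in the generation 0.705% were called, 0.337% higher and 0.368% lower. The members were thus called about as often as CpGs in general. Of the 82 CpGs 68 had a mean level between 20 and 80%, and in 64 the 2 groups did not overlap. A call already needs a wide gap in pooled reads, so the lack of overlap is not separate support for it. Its share over all called CpGs was not counted.

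The animal farthest from the median of the 5 was C8 in 43 of the 82 CpGs. Without C8 only 16 of the 82 were called again and 39 members were called in all. Without C14 61 of the 82 were called again, and 521 members were called in all, or 4.04%, against 4.43% of all CpGs. Over all CpGs too, fewer were called without C8 and more without C14. An F test that allows for overdispersion between animals called 0 members, with 166 at an unadjusted p under 0.05, and 0 of all CpGs.

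Fitted by promoter, with the animals as replicates, limma called 0 of 980 lncRNA promoters in the P-generation at an adjusted p under 0.05, and 0% of 15074 gene-start windows. The test was made on log2 ratios of methylated to unmethylated reads, with 1 added to each. At an unadjusted p under 0.05 there were 89 lncRNA promoters, or 9.08% of them, against 8.12% of all windows. Without C14, 37 lncRNA promoters passed the adjusted threshold, 22 of them higher and 15 lower, as did 3.22% of all windows, and without C8 0 did.

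The direction of small differences was uneven. Of the 992 promoters 57 were higher and 120 lower in decitabine treated animals without overlap between the groups. Over all gene-start windows 5.67% were higher and 14.7% lower in this sense, and over the 980 lncRNA windows 5.71% and 12.1%, so the lncRNA promoters were close to the background. Of the 120, 64 were promoters under 5%, where the median difference was -0.142 points. Among promoters between 20 and 80%, 13 were higher and 17 lower, or 5.26% and 6.88% of the distinct windows, against 8.05% and 6.97% of all gene-start windows of that level.

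The largest positive difference among promoters with 5 or more CpGs and groups apart was at 4930505M18Rik, an antisense lncRNA that starts within Zfp536, a zinc finger gene of neurons. Its level was 14.2% in C8 and 15.1% in C14, and 38.8% in D10, 43.2% in D11 and 31.7% in D13. The 3 decitabine treated animals were all above the vehicle-control animals, by 23.3 points in the mean (37.9% ± 5.84, SD, n = 3, against 14.6% ± 0.623, SD, n = 2). The difference stayed between 20.6 and 26.4 points when any 1 animal was left out. Depth was low here, with 14 to 17 reads per CpG in C8 and 14 to 23 in D13. limma gave 1.78 ± 0.608 (SE) on the log2 ratio scale with an adjusted p of 0.588. Of its 8 member CpGs 3 were called. CpGs so close together share reads and are not separate measurements. In the F3-generation 4930505M18Rik had 31.7% in F3C9 and 10.9% in F3C30, and 19.1% in F3D1, 16.4% in F3D7 and 10.1% in F3D31, so that the groups overlapped.

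Gm19590, a lincRNA on chromosome 5, was 2.46% in C8 and 7.39% in C14, and 19.9% in D10, 26.8% in D11 and 12.5% in D13, a difference of 14.8 points. Its adjusted limma p was also 0.588. Gm15966, Gm15343 and Gm31251, the last antisense within the cardiac myosin gene Myh7, were higher without overlap by 19.4, 15.7 and 12.0 points, and none passed the limma test. Without C14 the difference at Gm31251 was 7.77 points. In these 4 promoters D10 and D11 were the highest animals of the P-generation.

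The largest negative difference by the same rule was at Gm39318, antisense within Tirap, with 71.6% in C8 and 52.4% in C14 against 46.1% in D10, 39.5% in D11 and 35.9% in D13. The difference of -21.5 points became -11.9 without C8 and -31.1 without C14. 1700120K04Rik within Rnf40 had 98.6% in C8 and 84% in C14, and 79.1% in D10, 78.4% in D11 and 63.0% in D13. Its difference of -17.8 points became -10.5 without C8. All 3 decitabine treated animals lay below both vehicle-control animals at either gene.

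Gm42788 within Hmgb1, Gm11670 within the Wnt inhibitor gene Axin2 and Gm4651 within Mical3 differed by -16.2, -13.9 and -12.8 points. Without C8 the difference was -8.20 points at Gm42788, about -8 at Gm11670 and -6.10 at Gm4651, and without C14 it was -19.4 at Gm4651. C8 was the highest of the 10 animals in these 3 promoters, in Gm39318 and in 1700120K04Rik, and the adjusted limma p of the 5 was between 0.588 and 0.700.

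**Figure D3:**
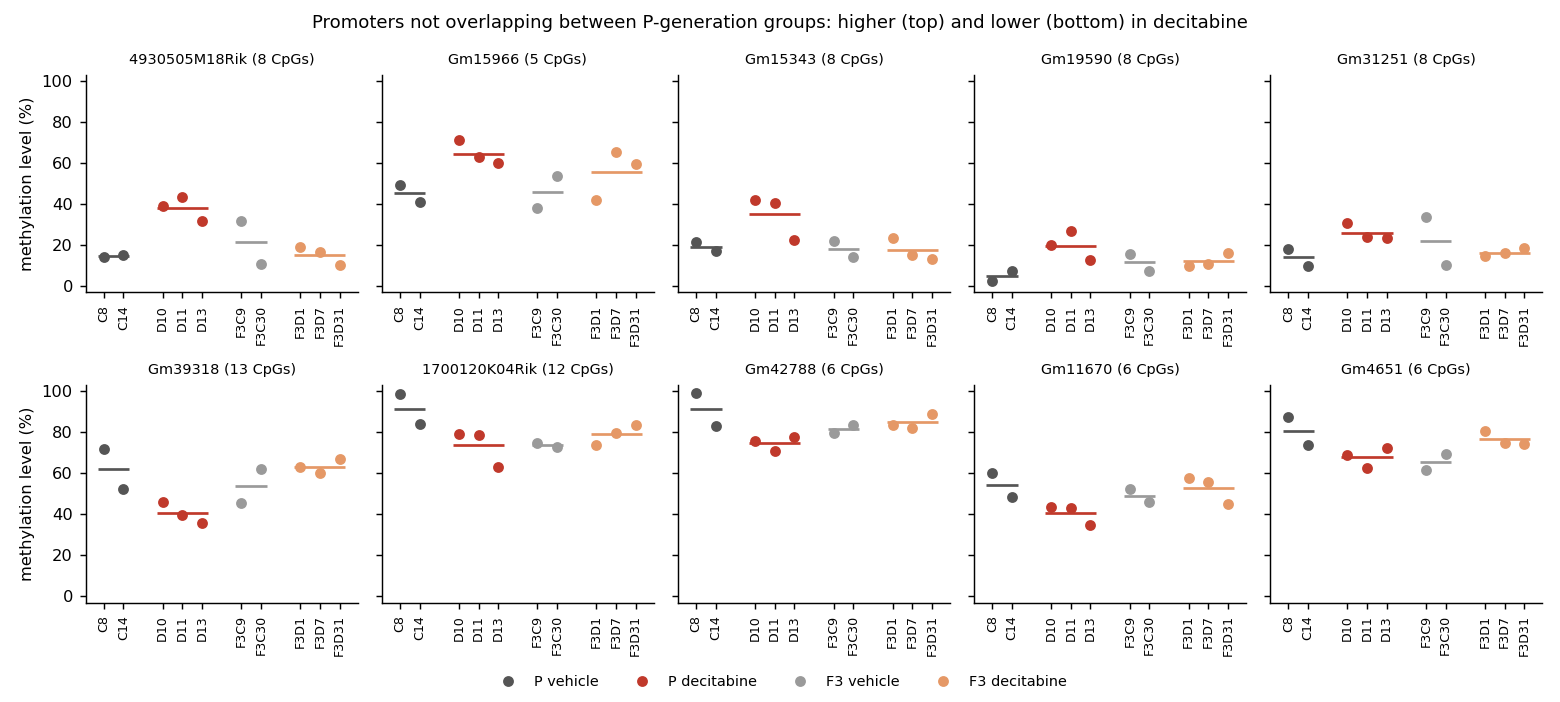
Methylation level in percent in each of the 10 animals for the promoters with the 5 largest positive (top) and 5 largest negative (bottom) differences in the P-generation among those with 5 or more member CpGs and no overlap between the P-generation groups. Points are animals and lines group means. In the bottom row C8 is the highest point of each panel, and in the F3-generation the groups overlap in each panel except Gm4651.

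Promoters with 3 called CpGs in the P-generation were 5 in number, and 4930505M18Rik was one. How many of all gene-start windows held 3 or more called CpGs was not counted, so the 5 are given as a description. 1700065J11Rik, a lincRNA on chromosome 6 with 3 member CpGs in all, from -492 to -468 bp of its start, was 72.4% in C8 and 38.6% in C14, and 24.8% in D10, 27.8% in D11 and 12.3% in D13. Its CpGs had 52 reads in C8 and 27 in D13, and at the first CpG the 95% Wilson interval was 48.0% to 73.5% for C8 and 5.92% to 32.5% for D13. The decitabine treated animals were all lower, with a difference of -33.9 points, which became -16.9 without C8 and -50.8 without C14. In the F3-generation the 5 animals lay between 18.3% and 47.6% with overlap between the groups.

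4930430O22Rik, antisense within Msi1, an RNA-binding protein of neural progenitors, had 30 member CpGs, the deepest with 95 to 217 reads in an animal. Its level was 15.2% in C8 and 15.0% in C14, and 8.04% in D10, 8.77% in D11 and 6.85% in D13. The difference of -7.19 points stayed between -7.63 and -6.67 when any 1 animal was left out. limma gave -1.05 ± 0.454 (SE) with an adjusted p of 0.590. In the F3-generation the 5 animals lay between 13.4% and 16.4%, with overlap between the groups.

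Within 4930430O22Rik the difference was uneven. The 3 called CpGs, at -162, -191 and -417 bp of the start, differed by -25.3, -35.0 and about -30 points of the pooled reads. The 4 CpGs from -279 to -232 bp differed by -20.3 to -12.1 points, and those at -154 and -167 bp, on either side of the first called CpG, by 0 and -0.166.

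AC132455.1, antisense within Zfp36l2, which codes for a protein of mRNA decay, had 27 member CpGs and was 11.4% in C8 and 18.9% in C14, and 5.83% in D10, 3.27% in D11 and 6.65% in D13. Its difference of -9.90 points became -6.18 without C14. In the F3-generation all 5 animals were between 15.3% and 22.7%, with overlap between the groups. The adjusted limma p was 0.588 in the P-generation and 0.853 for the difference between the generations.

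Gm38948 within Bicra, which codes for a subunit of a chromatin remodeller, was about 31% in C8 and 15.6% in C14, and 37.4% in D10, 37.6% in D11 and 22.7% in D13. Its groups overlapped, and its difference of 9.29 points became 1.60 without C14 and 17.0 without C8. The 3 called CpGs lay from 157 to 179 bp after the start and differed by 28.2 to 29.5 points. Of the 5 promoters with 3 called CpGs, 2 were higher and 3 lower in the decitabine group mean.

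In the F3-generation the mean level over members showed no detectable difference between the lines. It was 14.4% in F3C9 and 13.7% in F3C30, and the decitabine-line animals lay between them with 14.4% in F3D1, 14% in F3D7 and 13.9% in F3D31. The difference was 0.0223 points (exact permutation test, p = 1), which became 0.385 without F3C9, -0.340 without F3C30 and -0.141 without F3D1. As methylated reads over all reads it was -1.50 points, and as a mean over lncRNA genes with any member CpG 0.317.

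Called member CpGs in the F3-generation were 16, of which 14 were higher and 2 lower in the decitabine line, in windows of 15 lncRNA genes. This was 0.124% of the members, against 0.237% of all 1054262 CpGs tested, of which 0.159% were higher and 0.0774% lower. F3C9 was the animal farthest from the median in 13 of the 16. Without F3C9 1 of the 16 was called again and 3 members were called in all, whereas without F3C30 all 16 were, among 156 members. Over all CpGs too, fewer were called without F3C9 and more without F3C30. An F test that allows for overdispersion called 0 members, with 194 at an unadjusted p under 0.05, and 0 of all CpGs.

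The called CpG with the most reads was in Nckap5los at chr15:99427309, with 53.9% in F3C9 and 46.4% in F3C30 against 80.6% in F3D1, 80% in F3D7 and 82.8% in F3D31. Both vehicle-line animals were below all decitabine-line animals. The promoter as a whole differed by 3.84 points. The CpG with the largest difference, 35.5 points, was in Gm12343, where F3C9 had 26.3% and the other F3 animals between 81.8% and 100%. These 2 CpGs were picked after their values were seen.

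By promoter, limma called 0 of 980 lncRNA promoters in the F3-generation and 0% of all windows at an adjusted p under 0.05. An unadjusted p under 0.05 was reached by 34 lncRNA promoters, or 3.47%, against 3.2% of all windows. Of the 992 promoters 112 were higher and 91 lower in the decitabine line without overlap, where over all windows 10.9% were higher and 7.4% lower. Leaving out any 1 animal of this generation left the number of lncRNA promoters called in it at 0.

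Gm33926, a lincRNA on chromosome 7, had the largest positive difference in the F3-generation with 53.2% in F3C9 and 67.8% in F3C30, and 70.8% in F3D1, 77.8% in F3D7 and 78.6% in F3D31. The difference of 15.2 points became 7.94 without F3C9. Gm6566, antisense within Gstz1, an enzyme of tyrosine breakdown, had 52.1% in F3C9 and 56.5% in F3C30, and 67.1% in F3D1, 61.2% in F3D7 and 69.7% in F3D31. Gm4651 was higher by 11 points, and by 7.17 without F3C9. Gm29434 within the kinase gene Mknk1 and Gm31597 within the sulfotransferase gene Sult2b1 were higher by 10.3 and 9.35 points. At Gm29434 the difference was 1.90 points without F3C9 and 18.7 without F3C30.

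The largest negative differences were at Gm32224, Gm11795, H19, Zfp469 and 1700039E22Rik. Zfp469, annotated as a lincRNA in this release, had 15.7% in F3C9 and 15.3% in F3C30 against 6.74% in F3D1, 7.04% in F3D7 and 10.6% in F3D31. Its difference of -7.36 points stayed between -8.59 and -6.67 when any 1 animal was left out. At H19 the difference was -7.88 points, -3.25 without F3C9 and -12.5 without F3C30. 1700039E22Rik within Pax2, a paired-box gene of kidney and eye, differed by -6.36 points over 39 member CpGs, by -2.44 without F3C9 and by -10.3 without F3C30.

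Gm32224 and Gm11795, whose deepest CpGs had from 18 and 30 reads in an F3 animal, differed by -13.1 and -11.6 points, and Gm11795 by -7.04 without F3C9. The adjusted limma p was 1.00 for each of the 10 promoters with the largest differences in this generation.

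**Figure D4:**
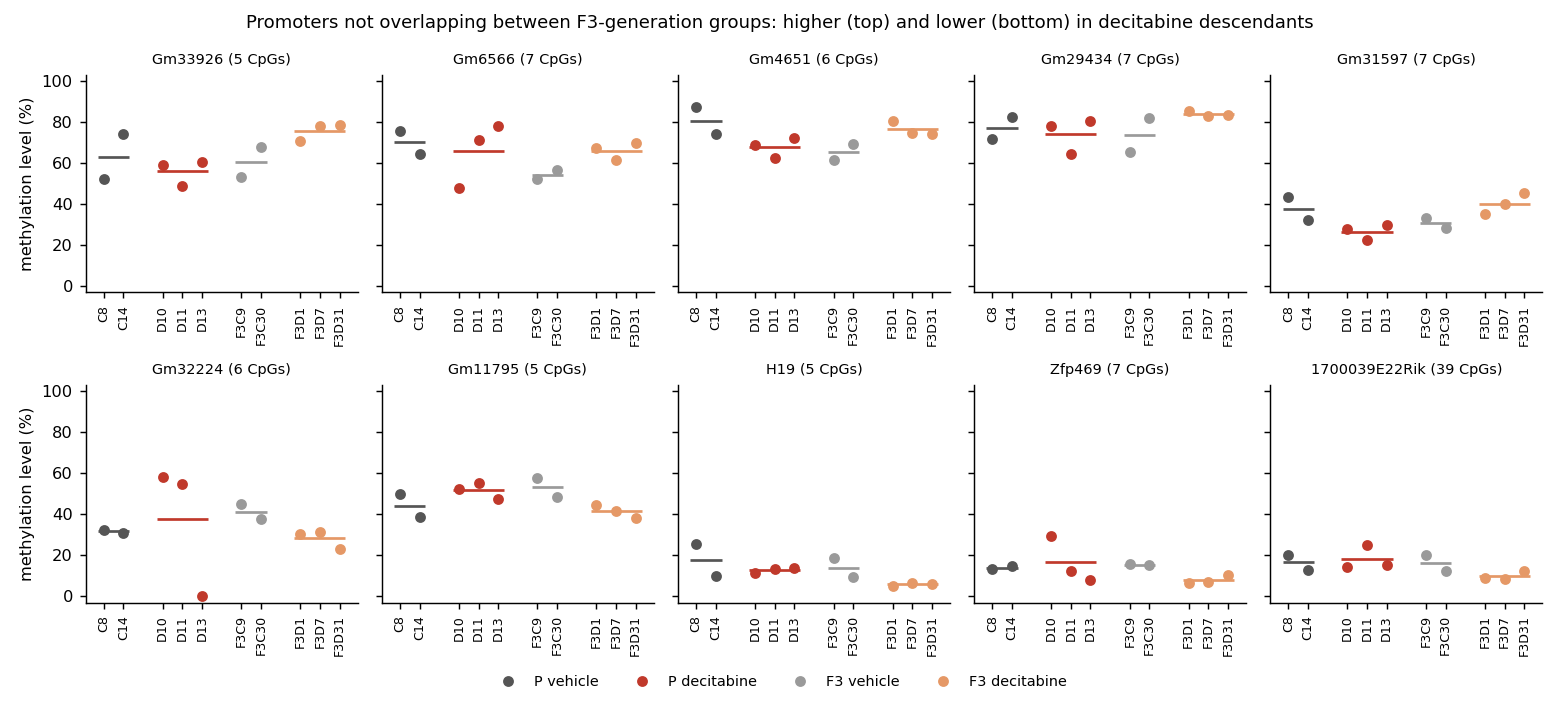
Methylation level in percent in each of the 10 animals for the promoters with the 5 largest positive (top) and 5 largest negative (bottom) differences in the F3-generation among those with 5 or more member CpGs and no overlap between the F3-generation groups. Points are animals and lines group means. F3C9 lies farther from the decitabine line than F3C30 in each panel except Gm31597.

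Few differences of the P-generation were called again in the F3-generation. Of the 82 called CpGs 2 were, in Gata5os in the same direction (26.5 and 29.3 points) and in Gm12343 in the opposite direction (-26.0 and 35.5 points), and the sign was the same in 30 of the 82. At the Gata5os CpG the F3-generation groups overlapped. It had 48.1% in F3C9 and 91.7% in F3C30, and 90.8% in F3D1, 75% in F3D7 and 100% in F3D31, with as few as 12 reads in an animal. At the Gm12343 CpG the P-generation groups overlapped. Counted in the direction of the P-generation, the F3-generation difference of the 82 CpGs had a median of -2.50 points, and 8 of them differed by at least 10 points in that direction. The same counts were not made over all CpGs called in the P-generation, so they do not tell the members from CpGs in general. limma called 0 of 980 lncRNA promoters, and 0% of all windows, for a difference between the generations. At an unadjusted p under 0.05 there were 60, or 6.12%, against 5.68% of all windows. Without C14 the adjusted threshold was passed by 8 lncRNA promoters and by 0.504% of all windows.

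Across the 992 promoters the differences of the 2 generations had a Pearson correlation of -0.0440, given as a description since promoters share libraries. Groups were apart in both generations in 32 promoters, in the same direction in 15 and in opposite directions in 17. How many of all gene-start windows were apart in both generations was not counted, so the 32 are given as a description. Trp53cor1 was one of the 15. Gm4651 was one of the 17, with 87.2% in C8, 73.9% in C14, 68.7% in D10, 62.6% in D11 and 72.0% in D13, and with 61.5% in F3C9, 69.2% in F3C30, 80.5% in F3D1, 74.5% in F3D7 and 74.1% in F3D31. The decitabine animals were lower in the P-generation and higher in the F3-generation, and the adjusted limma p of the difference between generations was 0.853.

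Gm44700, a lncRNA that starts within Capn12, was another of the 17 and is named after its values were seen. It had 3 member CpGs, each with at least 21 reads per animal. It was 0% in C8, where 21 reads allow a level of up to 14.3%, 2.86% in C14, 28% in D10, 37.0% in D11 and 12.7% in D13. In the F3-generation Gm44700 had 41.7% in F3C9 and 12.8% in F3C30, and 10.8% in F3D1, 0% in F3D7, where 34 reads allow a level of up to 8.82%, and 3.57% in F3D31. F3C9, a descendant of C8, was the highest of the 10 animals, and C8 and F3D7 were the lowest. The adjusted limma p of the difference between the generations was 0.853 here too.

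**Figure D5:**
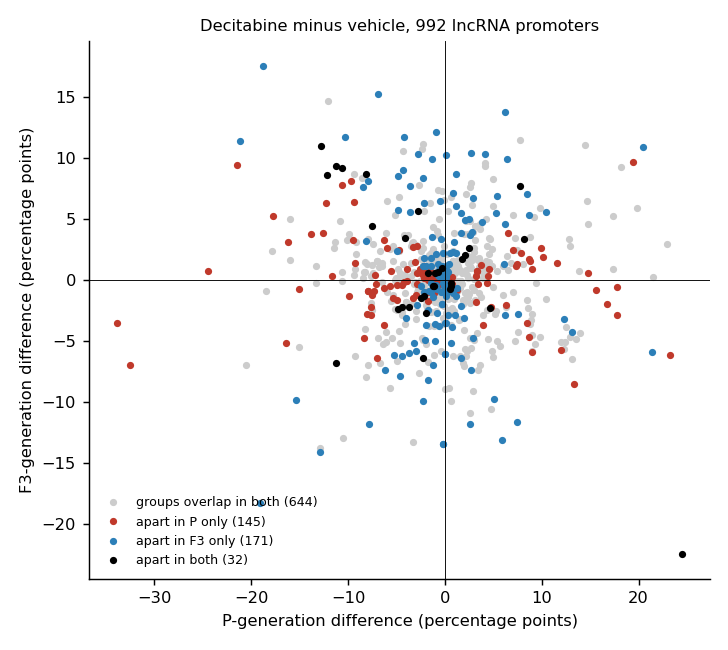
Difference in methylation level, decitabine minus vehicle, in percentage points, in the P-generation (horizontal) and the F3-generation (vertical) for each of the 992 lncRNA promoters. Colours mark promoters whose groups did not overlap in the P-generation only (145), the F3-generation only (171) or both (32), and the points lie around 0 without a common direction.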

How the data were processed

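RRBS of spermatozoal DNA from 10 mice was analysed. The authors digested DNA with MspI, trimmed adapters with Trim Galore 0.3.3 and cutadapt 1.1, mapped to mm10 and called methylation with Bismark 0.10.1 (versions from the submitters' processing notes), and deposited methylated and unmethylated read counts of each CpG cytosine per animal, unnormalized and with no coverage filter. From these deposited counts both strands were summed, and CpGs with 10 or more reads in all 10 animals were kept for levels and promoters. Single CpGs were tested by a logistic likelihood-ratio test, with Benjamini-Hochberg q-values. This was done in each generation over CpGs of all chromosomes with 10 or more reads in its 5 animals. The members are autosomal and needed these reads in all 10 animals, so their called shares stand beside a background with a looser filter. Promoter counts were tested in limma 3.58.1 (R 4.3.3) over 15074 gene-start windows with 3 or more CpGs, 4 groups sharing 1 spread; windows of identical CpGs counted once. Mean levels were compared by exact two-sided permutation. The labels do not say whether animals share a litter, and F3D1 and F3D31 share an ancestor.

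Members and gene lists were chosen with earlier results of these data known. Named promoters were those in the lists (given by counts and examples), any called by limma, the 5 largest rises and falls per generation among promoters with 5 or more CpGs and no overlap between groups, those with 3 or more called CpGs, and the 5 highest and 5 nearest 50% among those with 10 or more. Marker windows, the chromosome 17 windows, the density split and Gm44700 were chosen after values were seen. The likelihood-ratio test was checked on simulated counts that held no spread between animals, and limma on simulated counts with a set spread. These checks do not cover the spread between the real animals, and the permutation tests were not checked. Python 3.11.15 with numpy 2.4.6, pandas 2.3.3, scipy 1.17.1 and matplotlib 3.10.9 was used. The pedigree is taken from the study's text.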

Additional observations from a re-analysis of the deposited data

How the results depend on the processing

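Counts of called CpGs depended on the threshold, the depth and single animals. In the P-generation 0.497% of members and 0.524% of all CpGs were called at a minimum of 20 reads, and 2.28% and 2.13% at 10 percentage points. In the F3-generation these shares were 0.0740% and 0.174% at 20 reads and 0.768% and 0.953% at 10 points. After thinning to the shallowest animal they were 0.0249% and 0.0821%. In the P-generation 82 member CpGs became 47 at 20 reads, 294 at 10 percentage points and 0 with overdispersion, and 39 to 521 when 1 animal was left out. In the F3-generation 16 became 7 at 20 reads, 99 at 10 points, 3 after thinning to the shallowest animal and 0 with overdispersion, and 3 to 156 when 1 animal was left out. limma called 0 promoters under each setting with all animals, 0 to 37 in the P-generation, 0 in the F3-generation and 0 to 8 for the difference between generations with 1 animal left out. The P-generation difference in mean level ran from -0.606 to 0.366 points with 1 animal left out, and the F3-generation one from -0.340 to 0.385. As methylated reads over all reads the F3-generation difference was -1.50 points, and without the 3 windows on chromosome 17, an alternative chosen after seeing the data, -0.325, with 0.117 in the P-generation. The excess over coding promoters stayed between 9.91 and 32 points in all alternatives, the latter as a mean over genes with any member CpG, and between 12.6 and 12.7 points with 1 animal left out. With 2 animals against 3, no mean level could reach significance. No paired analysis was possible because the groups share no replicate numbers in the labels. The pedigree, known from the study's text, was not used as a block, so relatives were taken as independent.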
